A study of Mus musculus with 8 samples.

Results

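Polycomb repressive complex 2 (PRC2) is described here through 10 genes that encode its core and accessory subunits: Ezh1, Ezh2, Eed, Suz12, Rbbp7, Jarid2, Aebp2, Mtf2, Phf1 and Phf19. All 10 of these symbols had at least 1 probe set annotated to a single gene, out of 18193 genes with such a probe set, and together they had 32 probe sets out of 45037. All 10 genes were bright enough to be tested, as were 28 of their 32 probe sets, among 12982 genes tested in all. Where a gene had several probe sets, the one with the highest mean signal stands for it, and the others are given where they differed.

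PRC2 adds methyl groups to lysine 27 of histone H3, a mark that keeps developmental genes silent in embryonic stem (ES) cells. Ezh1 and Ezh2 are alternative catalytic subunits, Eed binds the methylated histone tail and stimulates the enzyme, Suz12 is the scaffold, and Rbbp7 is a histone chaperone shared with other chromatin complexes. The accessory subunits define 2 forms of the complex: the Polycomb-like proteins Phf1, Mtf2 and Phf19 belong to one form, and Jarid2 and Aebp2 to the other. ES cells can be kept without PRC2, but they then differentiate poorly.

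The samples came from CCE cells, an ES cell line of strain 129/Sv kept undifferentiated by leukemia inhibitory factor. Bmi1, a core protein of the related complex PRC1, was introduced as mouse cDNA on a lentivirus, the empty vector served as control, and infected cells were sorted on eGFP. The 4 groups were 2 arrays of embryoid bodies labelled Bmi1, 2 of vector embryoid bodies, 2 of ES cells labelled Bmi1, and 2 of control ES cells, namely 1 untreated array and 1 empty vector array. Embryoid bodies, the aggregates in which ES cells differentiate into mixed tissues, were harvested at day 10. Whether a group's 2 arrays came from separate cultures is not said in the labels. The p-values therefore refer to the variation among these 8 arrays, part or all of which may be technical, and so few arrays limit how precise any value can be. The signal of Bmi1 itself went against the labels: arrays with that label were below their controls. On its brighter probe set the log2 difference was -1.51 in embryoid bodies and -1.59 in ES cells, and on the other -1.59 and -1.58. The groups are therefore called by their labels throughout.

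The scale of the values differed between stages. By the distribution of their values the 8 arrays formed 3 sets, the embryoid body arrays of replicate 1, those of replicate 2, and the 4 ES cell arrays, with mean differences between sorted values of at most 0.0325 log2 units within sets and at least 0.189 across sets. Array medians ran from 5.57 to 5.61 in ES cells and from 5.89 to 5.97 in embryoid bodies. Stage and set cannot be told apart, so the subunits' differences between stages are also given after quantile normalization of the 8 arrays, which gives every array the same distribution. All 10 ES cell markers listed fell in embryoid bodies in both arms on the deposited scale, where 35.8% and 38.0% of all genes fell, and 8 and 6 of them after quantile normalization, where 26.4% and 26.8% did. Their mean signals were 12.26 to 12.63 on the ES cell arrays and 8.46 to 10.42 on the embryoid body arrays.

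The promoters of 4 subunits are shown: those of Ezh2, Eed and Suz12, which form the enzymatic core and fell together on the deposited scale, and that of Phf19, which moved the opposite way. Each line gives the 250 bases before the RefSeq start site in build GRCm38.p6, written 5′ to 3′ on the gene's own strand. Capitals mark matches, on either strand, to the E2F sites TTTCCCGC, TTTCGCGC, TTTGCCGC and TTTGGCGC and to the CCAAT box, motifs chosen after the expression values had been seen.
Ezh2 (chr6:47595031-47595280, minus strand): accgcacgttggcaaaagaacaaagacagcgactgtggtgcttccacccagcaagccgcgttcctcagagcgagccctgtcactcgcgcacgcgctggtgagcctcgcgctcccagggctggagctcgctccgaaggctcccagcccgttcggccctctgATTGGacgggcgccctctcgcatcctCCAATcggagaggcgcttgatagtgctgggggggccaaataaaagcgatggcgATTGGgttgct
Eed (chr7:89980977-89981226, minus strand): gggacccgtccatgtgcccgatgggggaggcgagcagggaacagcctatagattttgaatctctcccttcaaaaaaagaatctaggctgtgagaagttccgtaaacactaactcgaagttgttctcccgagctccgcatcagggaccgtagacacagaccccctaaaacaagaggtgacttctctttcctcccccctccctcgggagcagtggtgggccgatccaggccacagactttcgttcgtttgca
Suz12 (chr11:79992856-79993105, plus strand): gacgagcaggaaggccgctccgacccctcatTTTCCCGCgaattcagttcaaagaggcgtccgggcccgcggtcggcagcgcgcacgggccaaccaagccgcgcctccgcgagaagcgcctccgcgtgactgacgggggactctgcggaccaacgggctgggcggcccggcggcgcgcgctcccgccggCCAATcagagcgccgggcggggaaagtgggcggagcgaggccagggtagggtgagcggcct
Phf19 (chr2:34913977-34914226, minus strand): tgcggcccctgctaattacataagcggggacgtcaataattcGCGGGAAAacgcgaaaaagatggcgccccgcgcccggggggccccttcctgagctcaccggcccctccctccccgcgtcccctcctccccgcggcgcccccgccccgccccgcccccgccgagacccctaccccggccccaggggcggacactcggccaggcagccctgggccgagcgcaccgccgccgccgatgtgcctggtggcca
The Suz12 window held an E2F match 219 bases before the start and a CCAAT box 61 bases before it. The Phf19 window held an E2F match 208 bases before the start. That of Ezh2 held 3 CCAAT boxes, at 90, 64 and 11 bases before the start, and no match to the listed E2F letters. No match to either motif stood in the Eed window. Over all 32851 RefSeq mouse windows of this length, 1.86% held an E2F match and 33.8% a CCAAT box. Of the 14 windows of the 10 genes, 2 held the first and 6 the second, and 9 held the GC box GGGCGG, which stood in 32.7% of all windows and whose matches may overlap each other. The subunits' windows had a GC content of 46.4% to 76.4%, against a median of 52.4% over all windows. Suz12, which fell, and Phf19, which rose, thus both carried an E2F match, and a match is a description of letters, not of binding.

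The first comparison, in control cells, was between ES cells and day 10 embryoid bodies. The core subunits Eed, Suz12 and Ezh2 and the accessory subunits Jarid2 and Mtf2 fell by 2.33-fold to 4.64-fold on the deposited scale, while Phf19 and Phf1 rose by 2.19-fold and 1.47-fold. Ezh1, Rbbp7 and Aebp2 did not pass the test. In all, 7 of the 10 genes passed it at an adjusted p under 0.05 (limma, Benjamini-Hochberg over all genes tested), 5 lower and 2 higher. Of all genes tested 58.5% were called, 35.8% lower and 22.7% higher, so a call between stages was the usual result on these arrays. The arrays of the 2 stages did not overlap for any of the 10, with 7 lower in embryoid bodies, as for 48.8% of all genes, and 3 higher, as for 32.2%. In bulk RNA, fewer cells of a type and less RNA per cell cannot be told apart.

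**Figure D1:**
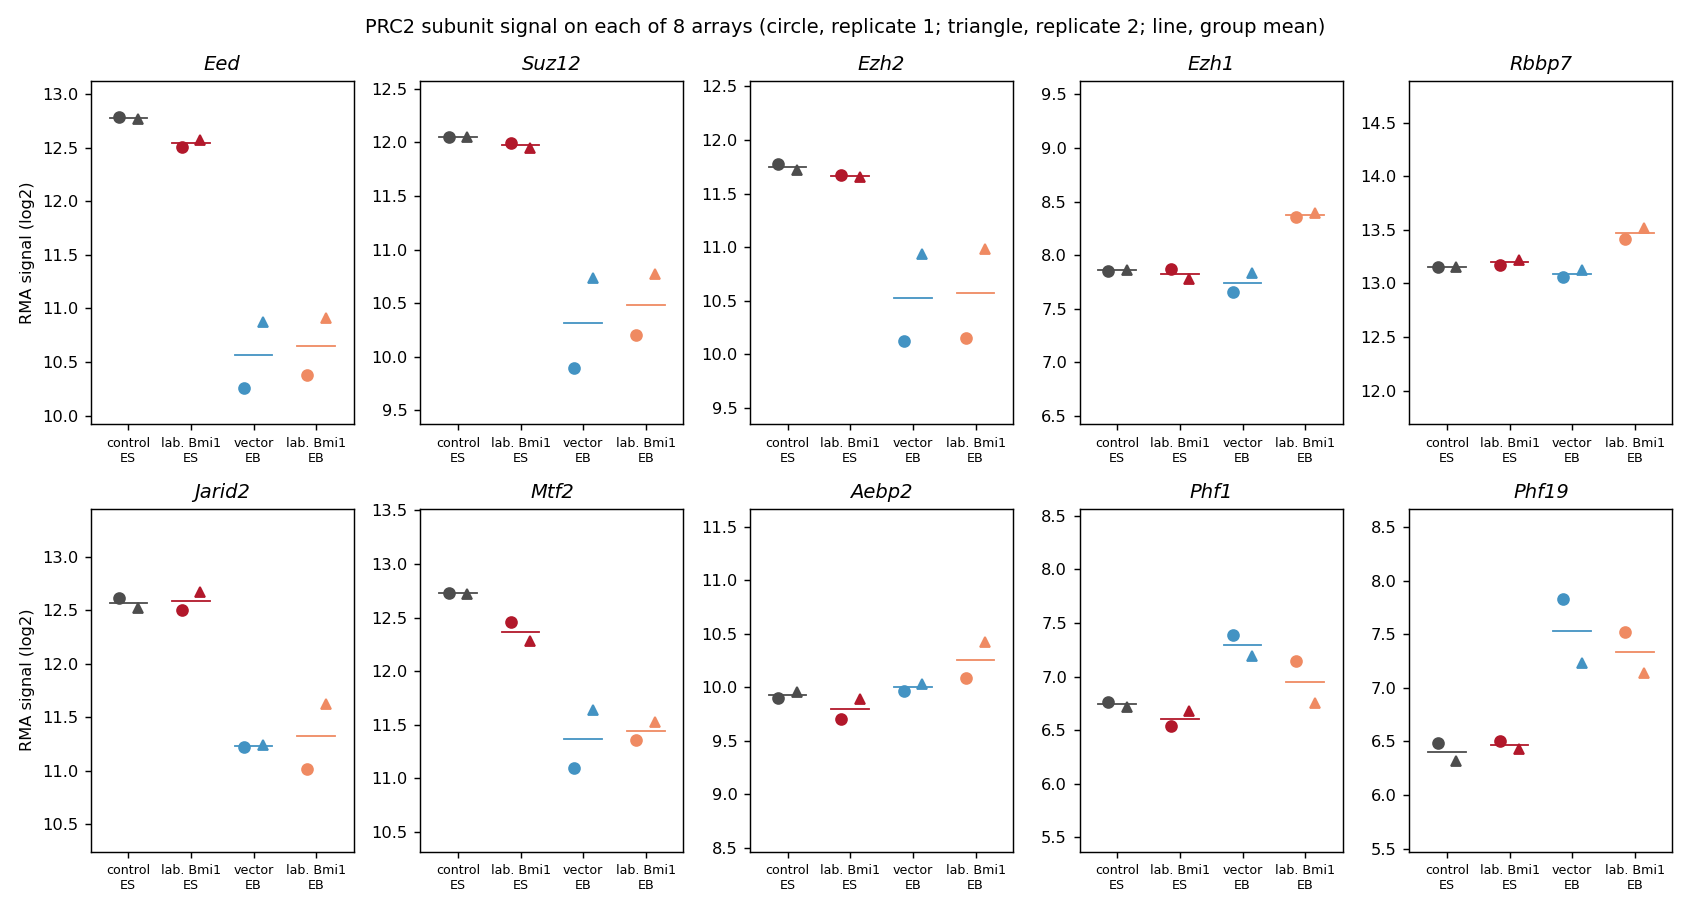
RMA signal (log2) of the 10 PRC2 subunits on each of 8 arrays, 1 panel per gene with the same span on every vertical axis; circles are replicate 1, triangles replicate 2 (in control ES cells, the untreated and the empty vector array) and lines group means. Eed, Suz12, Ezh2, Jarid2 and Mtf2 sit lower on all 4 embryoid body arrays than on all 4 ES cell arrays, while Ezh1 is highest on the 2 embryoid body arrays labelled Bmi1.

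By the brightest probe set of each gene, Eed showed the largest fall of the 10. Its signal was 12.79 and 12.77 in control ES cells, 12.51 and 12.57 in ES cells labelled Bmi1, 10.26 and 10.87 in vector embryoid bodies, and 10.38 and 10.91 in embryoid bodies labelled Bmi1. All 4 embryoid body arrays lay far below all 4 ES cell arrays, and those of the 2 embryoid body groups interleaved. The difference between stages was -2.21 ± 0.26 (SE, n = 2 arrays a group) in controls, with an adjusted p of 0.000546, and -1.89 ± 0.26 in the arm labelled Bmi1, with an adjusted p of 0.00105. After quantile normalization Eed remained called in both arms, at -1.30 (adjusted p = 0.00243) and -0.93 (adjusted p = 0.00885). Its second probe set (1453830_at) was too dim to test on any array.

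Suz12, the scaffold on which the other core subunits assemble, followed the same order. It was at 12.05 on both control ES cell arrays, at 12.00 and 11.95 in ES cells labelled Bmi1, at 9.90 and 10.73 in vector embryoid bodies, and at 10.20 and 10.77 in embryoid bodies labelled Bmi1. The groups of the 2 stages did not overlap, and the 2 vector embryoid body arrays were 0.84 log2 units apart. The fall was -1.73 ± 0.31 in controls (adjusted p = 0.00273) and -1.49 ± 0.31 in the arm labelled Bmi1 (adjusted p = 0.00517). After quantile normalization it was -0.87 in controls, still called with an adjusted p of 0.0257, and -0.56 in the arm labelled Bmi1, no longer called with an adjusted p of 0.104. Of the 6 Suz12 probe sets, 5 fell in controls, from -0.97 to -2.14, and the same number did after quantile normalization. The probe set 1449661_at did not pass, with 4.52 and 6.49 on the vector embryoid body arrays.

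Ezh2, the catalytic subunit of dividing cells, was read by a single probe set. It stood at 11.77 and 11.72 in control ES cells and at 11.67 and 11.65 in ES cells labelled Bmi1. In embryoid bodies it was 10.13 and 10.93 with the vector and 10.15 and 10.98 in those labelled Bmi1. The value on the embryoid body arrays thus went with the replicate number far more than with the label. Ezh2 fell by 1.22 ± 0.34 log2 units in controls (adjusted p = 0.018) and by 1.09 ± 0.34 in the arm labelled Bmi1 (adjusted p = 0.0271). Both calls were kept after median centring, which shifts every array to the same median, at -1.54 and -1.44. They were lost after quantile normalization, at -0.34 (adjusted p = 0.364) and -0.17 (adjusted p = 0.647). The call was also lost without vector embryoid body replicate 1, at -0.81 with an adjusted p of 0.0761, and without either control ES cell array, at adjusted p values of 0.0815 and 0.073. Among samples labelled Bmi1 it was lost without embryoid body replicate 1 (-0.68, adjusted p = 0.146) and without either ES cell array, at adjusted p values of 0.104 and 0.0988.

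Ezh1, the catalytic subunit known from resting and differentiated cells, took another course. It read 7.86 on both control ES cell arrays, 7.87 and 7.78 in ES cells labelled Bmi1, 7.65 and 7.83 in vector embryoid bodies, and 8.35 and 8.39 in embryoid bodies labelled Bmi1. The last group stood above the other 6 arrays, which lay within a narrow band. From ES cells to embryoid bodies Ezh1 differed by -0.12 ± 0.16 in controls (adjusted p = 0.551; -0.03 after quantile normalization), and it rose by 0.55 ± 0.16 in the arm labelled Bmi1 (adjusted p = 0.02; 0.83 with an adjusted p of 0.00777 after quantile normalization). After median centring the rise was 0.20. The adjusted p was over 0.05, at up to 0.116, without any one of the arrays labelled Bmi1 or the control ES cell arrays. The second Ezh1 probe set bright enough to test (1418290_a_at) did not follow: it differed by 0.02 in controls and by -0.11 in the arm labelled Bmi1, and the remaining 2 were too dim.

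Rbbp7, the histone chaperone, kept a bright signal on every array. It read 13.15 and 13.16 in control ES cells, 13.17 and 13.22 in ES cells labelled Bmi1, 13.06 and 13.12 in vector embryoid bodies, and 13.41 and 13.52 in embryoid bodies labelled Bmi1. These 8 values lay closer together than those of any subunit that was called. Between stages Rbbp7 differed by -0.07 ± 0.15 in controls (adjusted p = 0.732) and by 0.27 ± 0.15 in the arm labelled Bmi1 (adjusted p = 0.163). After quantile normalization it was called higher in both arms, at 0.86 (adjusted p = 0.00269) and 1.19. On this probe set its direction in controls thus depends on the scaling. The other Rbbp7 probe set (1415775_at) gave 0.13 in controls on the deposited scale, not called, and 1.06 after quantile normalization.

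Among the accessory subunits, Jarid2, which binds nucleosomes and stimulates the enzyme, fell with the core. It read 12.62 and 12.52 in control ES cells, 12.50 and 12.67 in ES cells labelled Bmi1, 11.22 and 11.24 in vector embryoid bodies, and 11.02 and 11.63 in embryoid bodies labelled Bmi1. The ES cell groups overlapped each other, as did the embryoid body groups, and the stages were apart. The fall was -1.33 ± 0.22 in controls (adjusted p = 0.0022) and -1.26 ± 0.22 in the arm labelled Bmi1 (adjusted p = 0.0028). After quantile normalization it was no longer called, at -0.40 and -0.25. Its dimmer probe sets fell further and 2 of the 3 stayed called after quantile normalization, with -1.69 in controls for 1450710_at against -2.41 on the deposited scale.

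Mtf2, the Polycomb-like protein that is prominent in ES cells and recruits the complex to unmethylated CpG-rich DNA, also fell. It read 12.73 and 12.72 in control ES cells, 12.46 and 12.28 in ES cells labelled Bmi1, 11.10 and 11.64 in vector embryoid bodies, and 11.36 and 11.53 in embryoid bodies labelled Bmi1. Both ES cell arrays labelled Bmi1 lay below both controls, and both stood above every embryoid body array. The difference between stages was -1.36 ± 0.22 in controls (adjusted p = 0.00175; -0.41 with an adjusted p of 0.094 after quantile normalization). In the arm labelled Bmi1 it was -0.93 ± 0.22 (adjusted p = 0.00863), but 0.07 after quantile normalization, a change of direction, and without ES cell replicate 1 labelled Bmi1 its adjusted p was 0.063. The brightest probe set gave the smallest fall of those that fell. The probe sets 1418514_at, 1418515_at and 1449115_at ranged from -2.03 to -3.02 in controls and stayed called after quantile normalization in both arms. Another, 1459811_at, passed the brightness filter through ES cell arrays alone, so it had to differ, and its fall supports nothing. The probe set 1445151_at went against them, with 0.02 in controls and 0.49 in the arm labelled Bmi1, neither of them called.

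**Figure D2:**
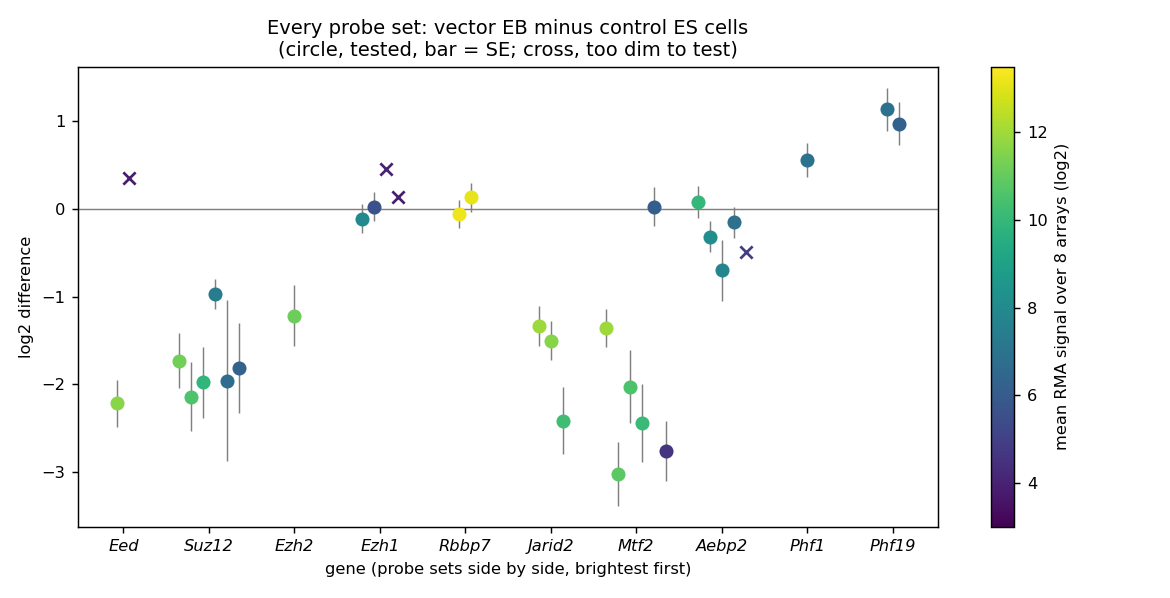
Difference between vector embryoid bodies and control ES cells (log2, vertical axis) for each of the 32 probe sets, grouped by gene along the horizontal axis with the brightest first; circles were tested, with bars of 1 SE, crosses were too dim to test, and colour gives the mean signal. The dimmer Mtf2 and Jarid2 probe sets lie lower than the brightest ones, while 1 Mtf2 probe set lies at 0.02.

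Phf19 and Phf1, the other Polycomb-like proteins, went the opposite way. Phf19 read 6.48 and 6.31 in control ES cells, 6.50 and 6.43 in ES cells labelled Bmi1, 7.83 and 7.23 in vector embryoid bodies, and 7.52 and 7.14 in embryoid bodies labelled Bmi1. Every embryoid body array was above every ES cell array. The rise was 1.13 ± 0.24 in controls (adjusted p = 0.00619) and 0.86 ± 0.24 in the arm labelled Bmi1 (adjusted p = 0.0185). After quantile normalization the sizes were alike, at 1.04 and 0.81, but neither was called, with adjusted p values of 0.0509 and 0.107. The second Phf19 probe set (1427920_at) gave 0.97 and 1.34, both called on the deposited scale. In the arm labelled Bmi1 the call on the first was lost without embryoid body replicate 1 or without either ES cell array labelled Bmi1, at adjusted p values of 0.0984, 0.0733 and 0.09.

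Phf1 read 6.76 and 6.71 in control ES cells, 6.54 and 6.68 in ES cells labelled Bmi1, 7.39 and 7.19 in vector embryoid bodies, and 7.14 and 6.76 in embryoid bodies labelled Bmi1. The vector embryoid bodies were the highest group, and the lower array labelled Bmi1 was level with the control ES cells. Phf1 rose by 0.55 ± 0.19 in controls (adjusted p = 0.0396), and in the arm labelled Bmi1 the difference was 0.34 ± 0.19 (adjusted p = 0.162; 0.23 after quantile normalization). The rise was not called after quantile normalization, at 0.45 with an adjusted p of 0.199. It was not called either without vector embryoid body replicate 1 (0.45, adjusted p = 0.126) or without any one of the 4 ES cell arrays, at adjusted p values of 0.0717 to 0.163.

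Aebp2, a zinc finger protein that works with Jarid2, did not pass the test between stages in controls on the deposited scale. It read 9.90 and 9.96 in control ES cells, 9.71 and 9.89 in ES cells labelled Bmi1, 9.97 and 10.04 in vector embryoid bodies, and 10.09 and 10.42 in embryoid bodies labelled Bmi1. Neighbouring groups in this order lay close together. The differences between stages were 0.08 ± 0.18 (adjusted p = 0.742) and 0.46 ± 0.18 (adjusted p = 0.0607). Without embryoid body replicate 1 the second was called, at 0.63 with an adjusted p of 0.0414. Quantile normalization raised these differences of the brightest probe set to 0.73 and 1.17, both called, but the other 3 tested Aebp2 probe sets did not move that way in controls, with -0.16 to -0.70 on the deposited scale and none called. Aebp2 is therefore given without a direction.

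**Figure D3:**
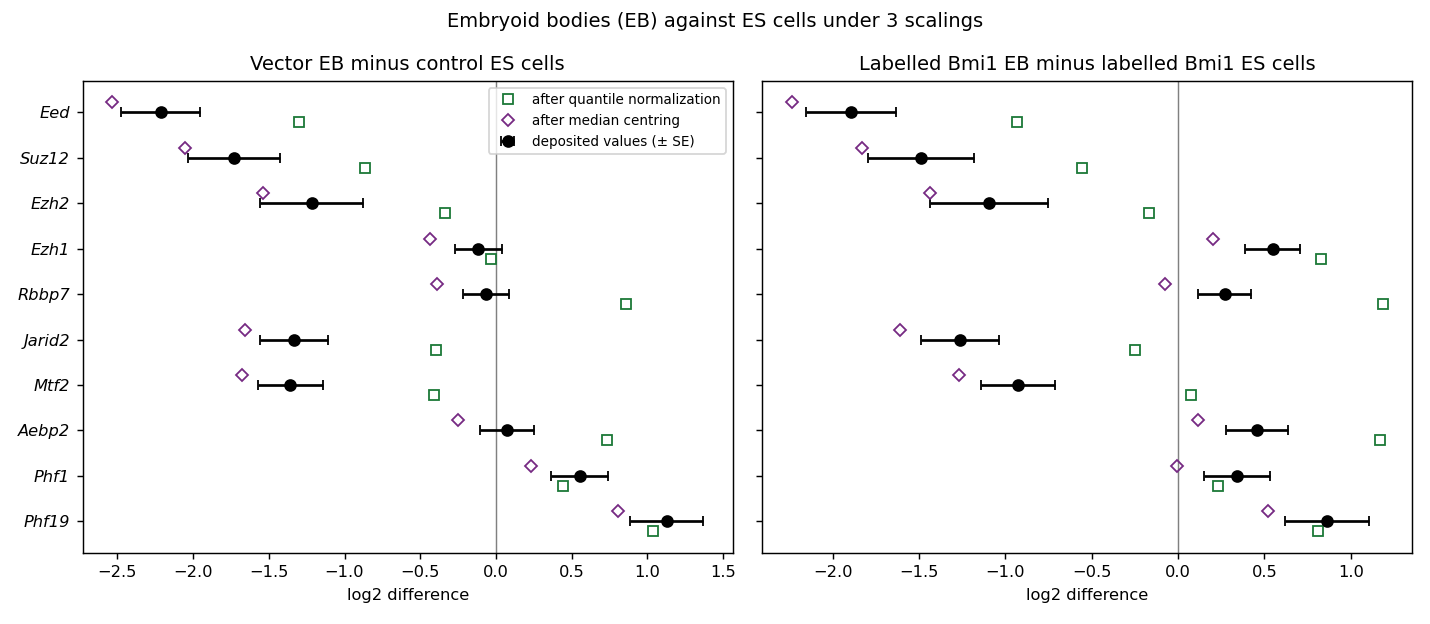
Difference between embryoid bodies and ES cells (log2) for the 10 subunits in vector and control samples (left) and in samples labelled Bmi1 (right); filled circles with bars of 1 SE are the deposited scale, squares are quantile normalized and diamonds median centred values. Quantile normalization moves the bright subunits upwards, Eed in controls from -2.21 to -1.30 and Rbbp7 from -0.07 to 0.86, and leaves the dim Phf19 at 1.04.

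The scaling moved the subunits unequally: quantile normalization raised the differences of the bright subunits and changed those of the dim Phf19 and Phf1 little. Over all genes the median difference between stages was -0.24 in controls and -0.27 in the arm labelled Bmi1 on the deposited scale, -0.04 and -0.03 after quantile normalization, and -0.56 and -0.62 after median centring. The medians of the 10 subunits under the same scalings were -0.67 and -0.33, then -0.18 and 0.15, then -0.99 and -0.67. With quantile normalization 4 subunits were called in controls, Eed and Suz12 lower and Aebp2 and Rbbp7 higher, where 26.4% of all genes were called lower and 25.0% higher. In the arm labelled Bmi1 the 4 were Eed, lower, and Ezh1, Aebp2 and Rbbp7, higher, beside 26.8% and 24.0% of all genes. After median centring 6 were called in controls, 5 lower beside 46.7% of all genes and Phf19 higher beside 17.0%. The count under the label Bmi1 was 5, all lower beside 49.1% of all genes, and none higher, where 14.5% of all genes were. Of these calls, all by the brightest probe set, the fall of Eed was the one made under all 3 scalings in both arms. Dimmer probe sets of Suz12, Jarid2 and Mtf2 were also called lower after quantile normalization in both arms. No share of all probe sets called lower is available to set beside them, and a gene with more probe sets has more chances of a call. Their number is therefore not read as a result.

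A gene's rank within its own array does not depend on such a scaling. As a percentile among the probe sets of its array, Eed dropped from 98.6 in control ES cells to 95.6 in vector embryoid bodies, and Suz12 from 97.3 to 94.5. The same pair of percentiles was 96.5 and 95.4 for Ezh2, 98.2 and 97.5 for Jarid2, and 98.5 and 97.8 for Mtf2. These ranks are of the brightest probe sets, and the dimmer ones of Suz12, Jarid2 and Mtf2 dropped further in controls. Jarid2 1450710_at went from 96.1 to 87.9 and Mtf2 1418514_at from 98.1 to 90.1. Under the label Bmi1, the brightest Mtf2 probe set stood at 97.9 in ES cells and 98.1 in embryoid bodies. The probe set 1418514_at stood there at 97.3 and 89.5. The percentile of Phf19 went up from 60.8 to 71.8, that of Phf1 from 64.4 to 69.0 and that of Aebp2 from 89.1 to 93.1. Rbbp7 stood at 99.0 and 99.6 in controls and at 99.1 and 99.8 in the arm labelled Bmi1. Ezh1 kept its place in controls, at 74.4 and 74.1, and went from 73.9 to 81.5 in the arm labelled Bmi1. Bright genes have little room to move in rank, so these steps are not compared in size between genes.

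**Figure D4:**
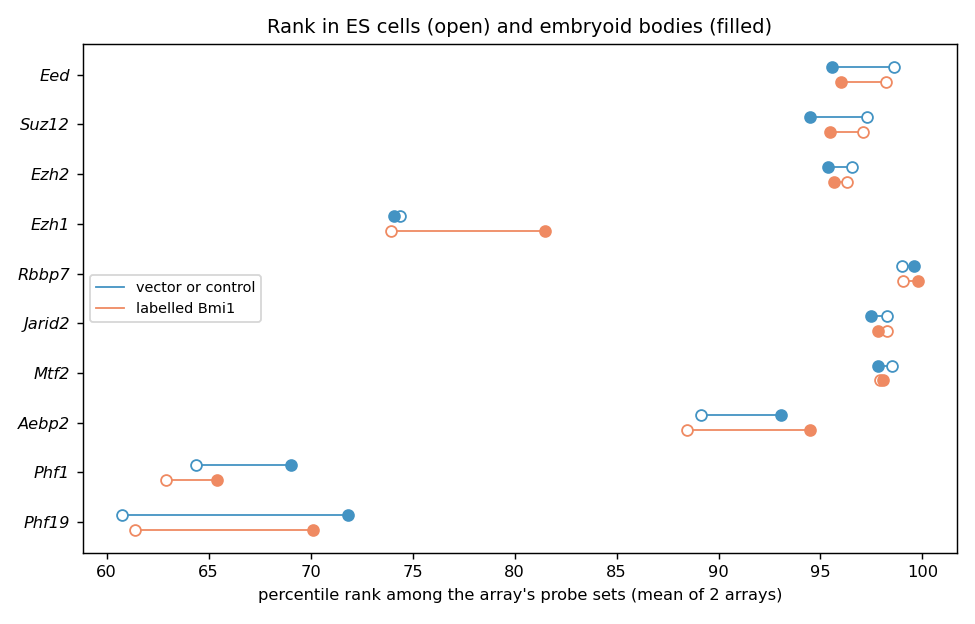
Percentile rank of the brightest probe set of each subunit among the probe sets of its array (horizontal axis, mean of 2 arrays). Open circles are ES cells and filled ones embryoid bodies, with vector or control samples in blue and samples labelled Bmi1 in orange. Eed and Suz12 move down, Phf19 moves up in both arms, and Ezh1 moves from 73.9 to 81.5 in the arm labelled Bmi1, against 74.4 and 74.1 in controls.

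In the arm labelled Bmi1 the count was the same as in controls: 7 of the 10 subunits were called, against 59.2% of all genes, 5 lower (Eed, Suz12, Jarid2, Ezh2 and Mtf2, beside 38.0% of genes) and 2 higher (Phf19 and Ezh1, beside 21.2%). Arrays of the stages did not overlap for any of the 10 here either, with 5 lower, as for 50.1% of all genes, and 5 higher, as for 31.0%. Without ES cell replicate 1 labelled Bmi1 the count was 3, namely Eed, Suz12 and Jarid2, and without replicate 2 it was 4. With a block for the 2 embryoid body sets all 10 were called, 5 in each direction, where 74.4% of all genes were called, 46.6% lower and 27.8% higher. The block left 7 called in controls, where 74.8% of all genes were.

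The 2 embryoid body replicates differed in several of these genes under both labels. In each label group 8 of the 10 were higher in replicate 2, as were 64.3% of all genes under the label Bmi1 and 59.2% with the vector. From replicate 1 to replicate 2, Ezh2 was higher by 0.83 log2 units in embryoid bodies labelled Bmi1 and by 0.81 with the vector, Eed by 0.53 and 0.62, and Suz12 by 0.57 and 0.84. Phf19 was lower by the same comparison, at -0.38 and -0.60, and Phf1 at -0.39 and -0.20. Jarid2 and Mtf2 differed unevenly between the labels, Jarid2 by 0.61 and 0.02 and Mtf2 by 0.16 and 0.54. The median over all genes was 0.16 and 0.13, and no subunit differed by more than 0.1825 in either direction between the 2 ES cell arrays of a group. The mean signal of the ES cell markers was also higher on replicate 2, at 9.87 and 10.42 against 8.74 and 8.46, and that of the proliferation genes at 10.47 and 10.46 against 10.13 and 10.06. Whether less complete differentiation, the array set or both lie behind this was not tested. Set against the mean of the control ES cells, Ezh2 differed by -1.62 in vector embryoid body replicate 1 and by -0.81 in replicate 2, and Eed by -2.52 and -1.90. These values cross sets, since the ES cell arrays form a set of their own.

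The comparison of embryoid bodies by label asked whether the label Bmi1 went with another level of the PRC2 subunits. None of the 10 genes was called on the deposited scale, where 18 of 12982 genes, 0.139%, were. Ezh1 and Rbbp7 had an unadjusted p under 0.05, as did 7.06% of all genes. With the sets as a block, which takes out the difference between replicates 1 and 2, Ezh1 was called higher, and 271 genes, 2.09%, were called in all.

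Ezh1 was 0.63 ± 0.16 log2 units higher in embryoid bodies labelled Bmi1 than in vector ones (95% interval 0.26 to 1.00), a 1.55-fold difference. Its arrays did not overlap, and the difference was 0.70 within set 1 and 0.56 within set 2. The adjusted p was 0.315 without the block and 0.0449 with it, so the call rests on the block. The SE of 0.16 draws on the spread in all 4 groups, and the block fit likewise takes its spread in part from ES cells. With only the embryoid body arrays in the fit, without the block, the SE was 0.24, and no gene was called. The dimmer probe set 1418290_a_at differed by -0.14, and the rise of Ezh1 is therefore a reading of 1 probe set.

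Rbbp7 was 0.38 ± 0.15 higher (interval 0.02 to 0.73, adjusted p = 0.658), with 0.36 and 0.40 within the sets and 0.16 on its other probe set. Aebp2 differed by 0.26 ± 0.18 and Phf1 by -0.34 ± 0.19, both without overlap of arrays and neither called. The dimmer tested Aebp2 probe sets ranged from -0.10 to 0.29. Subunits without overlap were 3 higher, beside 10.8% of all genes, and 1 lower, beside 14.4%. For Ezh2 the difference was 0.04 ± 0.34, with an interval of -0.76 to 0.84, and for Eed 0.08 ± 0.26, with an interval of -0.53 to 0.70. With the set block the intervals were narrower, -0.21 to 0.29 for Ezh2 and -0.17 to 0.33 for Eed. That fit also takes its spread in part from the ES cell arrays, whose replicates differed less, so these intervals may be too narrow. Phf19 differed by -0.20 on its brighter probe set and by 0.38 on the other, so it has no direction here.

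Markers of several cell types differed between these embryoid bodies without passing the test. The median over the tested markers was 1.41 for heart muscle (4 of 5 tested), 1.49 for trophoblast (3 of 5), -0.96 for endothelial cells (5 of 5) and -1.66 for primitive red cells (3 of 5), with 0 called in each list. It was -0.83 for endoderm, -0.71 for neural cells, -0.17 for ES cells and 0.05 for white blood cells, again with 0 called. With the set block, under which Ezh1 was called, 1 heart muscle and 1 trophoblast marker were called higher and 3 endothelial, 2 red cell, 1 endoderm and 1 neural marker lower. Mean signals of the trophoblast list were 8.46 and 8.39 in embryoid bodies labelled Bmi1 and 7.18 and 7.53 in vector ones, and those of the heart muscle list 8.93 and 9.07 against 6.65 and 8.54. Those of the red cell list were 7.44 and 7.97 against 8.65 and 9.26, and those of the endothelial list 7.04 and 7.46 against 8.12 and 8.09. The part of cell composition in the Ezh1 difference was not tested.

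**Figure D5:**
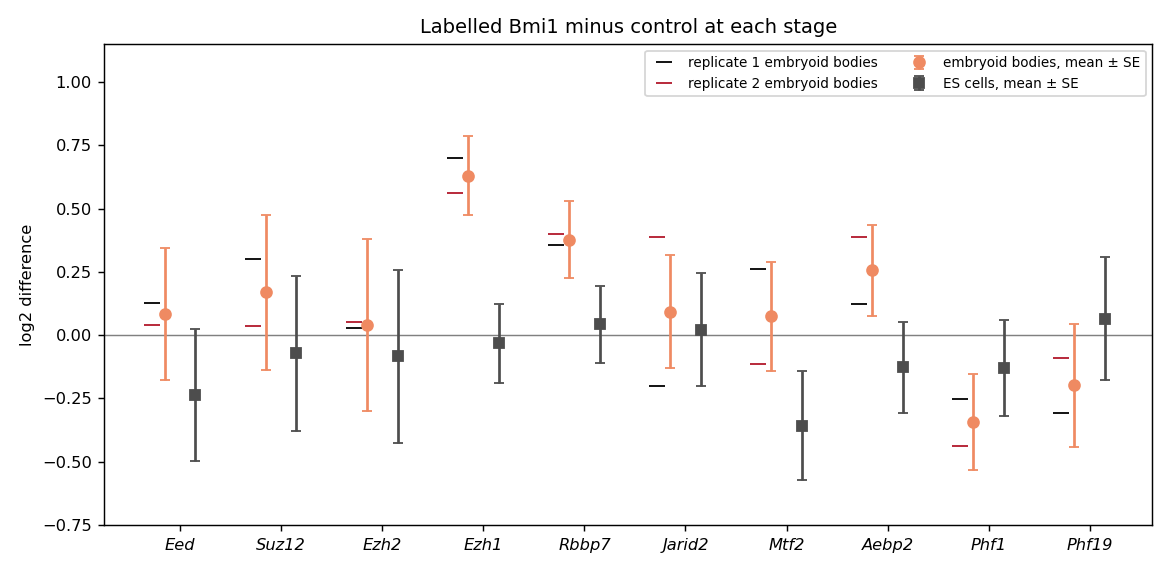
Labelled Bmi1 minus control (log2) for each subunit in embryoid bodies (circles) and ES cells (squares), with bars of 1 SE; short lines give the difference within embryoid body replicate 1 (black) and replicate 2 (red). Ezh1 stands at 0.63 in embryoid bodies and at -0.03 in ES cells, while Jarid2 and Mtf2 change sign between the embryoid body sets.

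In undifferentiated ES cells, none of the 10 subunits was called between the arrays labelled Bmi1 and the controls, where 6 genes, 0.0462% of those tested, were, and 6.29% had an unadjusted p under 0.05 with no subunit among them. With the set block 1.66% of genes were called, again with no subunit. Mtf2 differed most, by -0.36 ± 0.22 (interval -0.86 to 0.15), and its 6 probe sets lay between -0.22 and -0.43. Eed differed by -0.24 ± 0.26, and Ezh2, Suz12, Ezh1, Phf1 and Aebp2 by -0.03 to -0.13. Jarid2, Rbbp7 and Phf19 differed by 0.02 to 0.07. Subunits whose arrays were all lower without overlap numbered 6, beside 20.6% of all genes, and Rbbp7 was higher without overlap, as were 25.1%.

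The difference between the 2 label effects, in embryoid bodies minus in ES cells, was called for none of the 12982 genes, with 887, 6.83%, at an unadjusted p under 0.05 in limma, and for 0.824% of genes and no subunit with the set block. Among the subunits it was 0.66 ± 0.22 for Ezh1, the one of the 10 at an unadjusted p under 0.05, with an adjusted p of 0.561 (0.104 with the set block). A different effect at the 2 stages was thus not shown for any subunit. The comparisons share arrays: the embryoid bodies labelled Bmi1 that set the Ezh1 value against the vector also set its rise from ES cells, so these are not independent.

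Other genes that work with or against PRC2 were mixed. Of 20 listed, 19 had a probe set and 18 were tested, of which 4 rose and 9 fell in controls, and 5 rose and 9 fell in the arm labelled Bmi1. Of all genes tested 22.7% rose and 35.8% fell in controls, and 21.2% and 38.0% in the arm labelled Bmi1. On the deposited scale, Lcor, whose locus encodes the PRC2 partner Pali1, rose by 2.52 ± 0.31 in controls (adjusted p = 0.000605; 2.74 after quantile normalization) and by 3.29 ± 0.31 in the arm labelled Bmi1. Its relative Lcorl rose by 2.21 and 2.30, and Nsd3, a histone H3 lysine 36 methyltransferase, by 1.49 and 1.73. Asxl3, a partner of the deubiquitinase Bap1, rose by 1.52 in controls, and Kdm6b, which removes lysine 27 methylation, rose by 1.19 in the arm labelled Bmi1. Among the genes that fell was Eloc, an Elongin subunit, with differences of -1.96 and -1.95 in the 2 arms. Bap1, which removes ubiquitin from histone H2A, gave -1.66 and -1.65, its partner Asxl2 gave -1.89 in controls, and Eny2 gave -1.56. The genes named here as called kept their direction after quantile normalization. The list's median was -0.77 in controls and -0.75 in the arm labelled Bmi1, and -0.11 and 0.00 after quantile normalization, and 0 of its 18 tested genes were called between label and control at either stage.

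Developmental regulators commonly given as PRC2 targets in ES cells were mostly dim in ES cells. Of 30 listed, 28 had a probe set, of which 11 to 12 lay above the array median on each ES cell array and 17 to 21 on each embryoid body array. The 22 tested include genes that passed the brightness filter through embryoid bodies alone and so had to differ, and their counts support nothing about the list. As a description, 15 of the 22 were called higher and 2 lower in controls, where 22.7% and 35.8% of all genes were, and 13 and 1 in the arm labelled Bmi1, where 21.2% and 38.0% were (14 and 2, and 13 and 1, after quantile normalization). Gata6, an endoderm regulator, read 4.97 and 4.87 in control ES cells, under the array medians, and 10.93 and 10.03 in vector embryoid bodies. Sox17, of the same tissue, read 3.72 and 3.96 in control ES cells and 8.87 and 9.53 in vector embryoid bodies. The homeobox genes Hoxd10, Lhx2 and Isl1 were likewise under the median on every ES cell array and called higher, and no fold is given for these 5 because their ES cell readings may be background. Cdkn2a, the locus of p16 and p19Arf, read 6.11 and 5.88 in control ES cells, above the array medians, and 4.42 and 4.16 in vector embryoid bodies, below them. It passed the brightness filter through the 2 control ES cell arrays alone and so had to differ, and its call as lower in controls supports nothing. In the arm labelled Bmi1 all 4 of its readings were below the array medians, and no difference is given. Pax6, a neural regulator, fell by 1.20 ± 0.38 in controls (adjusted p = 0.0301; -1.45 after quantile normalization). None of the 22 was called between label and control at either stage.

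Genes of proliferation fell in the same comparisons as Ezh2. Of 15 listed, 14 were tested, and on the deposited scale 12 fell and none rose in each arm, where 35.8% and 38.0% of all genes fell, with medians of -1.30 and -1.19 (-0.60 and -0.36 after quantile normalization, with 8 and 6 called lower, beside 26.4% and 26.8% of all genes, and 0 and 1 higher). Ccne1, which drives entry into S phase, gave -3.44 ± 0.19 in controls, and -2.85 after quantile normalization. Aurkb, a mitotic kinase, gave -1.89, Mcm5, of the replicative helicase, -1.69, and Ccna2, a cyclin of S phase and mitosis, -1.64 on the deposited scale. Mean signals of this list were 11.65 to 11.74 on the ES cell arrays and 10.06 to 10.47 on the embryoid body arrays. The part of proliferation or of the remaining ES cells in the fall of PRC2 subunits was not tested.

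Genes whose profile over the 8 arrays was most like that of Ezh2 were named by the root mean square difference between profiles, each centred on its own mean. The nearest was Diaph3, a formin, at 0.0424 log2 units, then Rbm12 at 0.0681, Bcdin3d at 0.0682, Slc35e2 at 0.0689 and Casc3 at 0.0704. Among the subunits Mtf2 was the nearest, ranked 654 of the tested genes, before Jarid2 at 883 and Suz12 at 1086. For Ezh1 the nearest was Sptlc2, a subunit of serine palmitoyltransferase, at 0.0652, then Lonp2 at 0.0794, Usp2 at 0.0821, and Gdap2 and Phyh at 0.112 each. Rbbp7 ranked 8 and Aebp2 75 by likeness to Ezh1, while Ezh2 ranked 8902. This likeness is a description over 8 arrays in 4 groups and carries no test.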

How the data were processed

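Expression was measured on 8 Affymetrix arrays, 1 per sample, with 1 microgram of RNA labelled for each, per the labels. The authors' deposited values are log2 signals, and the submitters' processing notes name RMA as the method. Which arrays went through it together was not stated. The 64 control probe sets of the array were left out. The platform annotation gave 34945 probe sets 1 symbol, 932 several and 9160 none. Probe sets with several symbols were not used. The brightest one-symbol probe set, by the mean of all 8 arrays, stood for a gene, which was tested if it lay above the array median on at least 2 arrays, which left 12982 genes.

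The linear model of limma 3.58.1 (under R 4.3.3, with its default eBayes prior) held 4 group means over all 8 arrays, which left 4 residual degrees of freedom. Tests were two-sided, with Benjamini-Hochberg adjustment over all genes tested and a threshold of 0.05. Errors are SEs of that fit, which uses a common spread for all 4 groups, and intervals are at 95%. The root mean square difference between replicate arrays was 0.51 (labelled Bmi1) and 0.67 (vector) log2 units in embryoid bodies. In ES cells it was 0.27 (labelled Bmi1) and 0.23 (control). The common errors may therefore be too narrow for embryoid bodies and too wide for ES cells. Probe sets were fitted the same way, with adjustment over all probe sets tested. The script was tested on simulated data.

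Deviations from the group means of embryoid body arrays with the same replicate number correlated at r = 0.72, and those with ES cell replicate 1 at 0.03 and 0.04. The number therefore followed the distribution sets in embryoid bodies, and the set was used as a block there, leaving 3 residual degrees of freedom. Alternatives were quantile normalization, median centring, other filters and priors, array weights, all probe sets or their mean, and leaving out each array.

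The members and gene lists were chosen with earlier results of these data known. Named were all 10 subunits with their probe sets, up to 4 called genes of each list in each direction with the smallest p, and the 5 profiles nearest to Ezh2 and Ezh1. Some markers stand in several lists. Promoter windows and their coordinates are from RefSeq tables for GRCm38.p6, and each of the 10 genes had at least 1 window.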

Additional observations from a re-analysis of the deposited data

Results flagged for a closer look

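By its brightest probe set, Aebp2 differed in opposite directions by label at the 2 stages. Both embryoid body arrays labelled Bmi1 were above both vector arrays, as for 10.8% of all genes. Both ES cell arrays labelled Bmi1 were below both controls, as for 20.6%, but the nearest readings were 9.890 and 9.897. Other probe sets were mixed: 1435070_at gave 0.06 and -0.21, 1455616_at 0.29 and -0.29, and 1437743_at -0.10 and -0.08. On the brightest, the difference of the 2 effects was 0.38 log2 units. In limma its adjusted p was 1.0, and 0.332 with a block for the 2 embryoid body sets, so the difference did not pass the test.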

How the results depend on the processing

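In embryoid bodies, the count of subunits called between label and vector went from 0 to 1 (Ezh1) with the replicate block of the embryoid body pairs, and it was 0 with a replicate block over the 6 numbered arrays. No subunit was called in ES cells, or for the difference of the effects, under any alternative run. Between vector embryoid bodies and control ES cells, 7 subunits were called. By the brightest probe set of each gene, the count was 4 after quantile normalization, adjusted over genes or over every probe set, where Rbbp7 turned from -0.07 to 0.86, and 5 to 7 when 1 array was left out. In the arm labelled Bmi1 the count of 7 became 4 after quantile normalization in the same 2 ways, where Mtf2 turned from -0.93 to 0.0735, and 3 to 7 when 1 array was left out. By any of their probe sets, more subunits were called after quantile normalization in both arms, but genes with several probe sets have more chances of a call. No share over all genes by that rule is available, so no count is given. The block gave 10 in the arm labelled Bmi1 and 7 in controls. The fall of Eed was called in both arms under quantile normalization, median centring and each left-out array. With 2 arrays a group, and a scale that differs between stages, some small changes were not resolved. Examples after quantile normalization are Ezh2 (-0.34 in controls) and the brightest Jarid2 probe set (-0.40 in controls). The dimmer Jarid2 probe sets 1422697_s_at and 1450710_at stayed called in controls, at -0.57 and -1.69. Alternatives added after seeing the data were quantile normalization of every probe set and the fits with embryoid bodies of 1 set only.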
